A study of Mus musculus with 36 samples.

Results

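10 genes of the Egr, Nab, Nr4a and Ier families were followed in mouse macrophages given lipopolysaccharide (LPS): Egr1, Egr2, Egr3, Nab1, Nab2, Nr4a1, Nr4a2, Nr4a3, Ier2 and Ier3. They were chosen by name, with earlier results of these data known, as the rows of the deposited expression table that carry these 10 symbols among 16416 named genes. All 10 were in the table, and all 10 passed the filter on low values that left 11656 genes for testing. The genes were read in wild-type cells and in cells carrying a point mutation of Tnip2, before LPS and at 5 times after it.

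Immediate early genes are switched on by signalling without new protein synthesis, and LPS does so in macrophages through Toll-like receptor 4 and the MAP kinase and NF-kappaB pathways. Egr1, Egr2 and Egr3 encode zinc finger transcription factors that bind GC-rich sites, and Nab1 and Nab2 encode corepressors that bind Egr proteins and limit their activity. Nr4a1 (Nur77), Nr4a2 (Nurr1) and Nr4a3 (Nor1) encode orphan nuclear receptors, which are induced in macrophages by inflammatory stimuli. Ier2 encodes a small nuclear protein, and Ier3 (IEX-1) a stress-induced protein that affects cell survival. Tnip2 encodes ABIN-2, which binds ubiquitin and holds the kinase Tpl2 (Map3k8) in a complex upstream of ERK activation by LPS.

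The cells were bone marrow-derived macrophages (BMDMs), that is, macrophages grown out of bone marrow over 7 days in RPMI medium, on plates to which they do not adhere, with 10% serum and 10% supernatant of L929 cells, a source of M-CSF. They were wild type (WT) or carried Tnip2[D310N], which the sample titles call D310N and the table's column names D309N. Cells were unstimulated (0 min) or treated with 100 ng/ml LPS for 30, 60, 120, 240 or 360 min, which makes 12 groups with 3 libraries in each. Strain, age and zygosity are not given in the sources used here, nor whether the replicates came from separate animals or cultures, so p-values measure only the spread between these libraries.

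Values are the deposited log2 normalised expression values, and a difference is in log2 units ± its standard error (SE) with n = 3 libraries per group. The SE uses the spread of a gene pooled over all 36 libraries. It does not measure the spread within the groups compared, and is too small where these are more spread than the rest. A gene was called at a Benjamini-Hochberg adjusted p under 0.05 in limma, a linear model fitted over all genes and all 36 libraries. Library medians ranged from 6.83 to 7.2, and read depth is unknown. All 10 macrophage markers checked were detected in every library, among them Lyz2 at 16.81 to 17.18 and Csf1r at 13.61 to 14.63, and their summed level was 17.84 to 18.15 in WT and 17.77 to 18.15 in D310N. The summed dendritic cell markers spanned 4.42 to 7.76 in WT and 4.46 to 7.3 in D310N, the neutrophil markers 3.89 to 4.67 and 3.93 to 4.97, and the fibroblast markers 3.45 to 5.76 and 4.04 to 5.19. No listed marker of T cells, B cells, mast cells or erythroid cells passed the filter. Tnip2 RNA was called between the genotypes at 240 min alone (0.18 ± 0.06, adjusted p = 0.0398), and as the mutation changes a codon, its RNA level does not check the genotype labels. WT replicate 1 at 360 min stood apart: its median absolute log2 difference over tested genes was 0.194 from the other two WT libraries of that time and 0.073 from the WT mean at 240 min. For WT replicates 2 and 3 these values were 0.133 and 0.188, and 0.116 and 0.175. Values without that library are given beside the comparisons with WT at 360 min that it changed.

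Promoter sequences are shown for the 5 genes whose windows carried, outside exons, motifs bound by factors that immediate early signalling activates. A link between these motifs and the times at which the genes rose was not tested. Windows of 250 bases before the start were taken from RefSeq (GRCm38.p6) and were available for 7 of the 10 genes, and exon bases were left off. Capitals mark matches, on either strand, to a CArG box (bound by serum response factor), the core TGACG of a cAMP response element (CRE), an Egr site GCGNGGGCG and a kappaB motif. The Egr2 stretch is chr10:67537619-67537868 on the plus strand, the Nr4a1 stretch chr15:101266596-101266845 on the plus strand and the Nr4a2 stretch chr2:57124004-57124253 on the minus strand. The Nr4a3 stretch is chr4:48045055-48045152 and the Ier3 stretch chr17:35821463-35821683, both on the plus strand. The Egr2 window is 1 of 5 in RefSeq, the one nearest to the start of the gene's principal transcript.
Egr2 promoter: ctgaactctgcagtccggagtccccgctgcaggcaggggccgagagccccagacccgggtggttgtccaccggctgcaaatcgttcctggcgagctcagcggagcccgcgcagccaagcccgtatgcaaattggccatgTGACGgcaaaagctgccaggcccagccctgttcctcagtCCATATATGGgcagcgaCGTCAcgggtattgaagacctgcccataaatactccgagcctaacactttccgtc
Nr4a1 promoter: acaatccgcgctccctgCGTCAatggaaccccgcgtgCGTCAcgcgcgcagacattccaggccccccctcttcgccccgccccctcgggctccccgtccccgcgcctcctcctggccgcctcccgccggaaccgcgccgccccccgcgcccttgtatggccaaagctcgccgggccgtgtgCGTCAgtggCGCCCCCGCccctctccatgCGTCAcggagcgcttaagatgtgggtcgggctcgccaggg
Nr4a2 promoter: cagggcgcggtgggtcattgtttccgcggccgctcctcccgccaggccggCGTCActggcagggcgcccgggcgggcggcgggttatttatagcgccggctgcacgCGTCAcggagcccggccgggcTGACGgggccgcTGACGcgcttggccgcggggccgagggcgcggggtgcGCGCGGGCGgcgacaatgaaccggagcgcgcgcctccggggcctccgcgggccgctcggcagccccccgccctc
Nr4a3 promoter: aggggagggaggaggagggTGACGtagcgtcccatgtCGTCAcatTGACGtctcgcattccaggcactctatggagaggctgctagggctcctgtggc
Ier3 promoter: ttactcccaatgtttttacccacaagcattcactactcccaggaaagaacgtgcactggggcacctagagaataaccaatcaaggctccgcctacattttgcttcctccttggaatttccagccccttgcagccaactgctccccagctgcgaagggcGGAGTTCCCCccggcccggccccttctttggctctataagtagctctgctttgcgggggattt

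Egr2 had a CArG box 72 bases before its start, a motif found in 1.47% of 32851 RefSeq windows of this length, and 2 CRE cores. Each of the 3 Nr4a windows held 4 CRE cores, of which the Nr4a3 stretch shows 3. At least 1 core was present in 17.8% of all windows and at least 4 in 0.137%. The cut at 4 is the count seen in the Nr4a windows, and the windows were not matched for GC content, so the share is only a description. Nr4a1 and Nr4a2 also held 1 Egr site each (4.7% of windows), overlapping none of the cores. Ier3 held 1 kappaB motif, 92 bases before its start (3.9% of windows). In the windows not printed, Nab1 held 3 Egr sites, 1 kappaB motif and 1 CRE core, and Nab2 none of the 8 motifs searched. The other motifs searched were the full CRE TGACGTCA (1.55% of windows), an AP-1 site TGANTCA (6.75%), a monomer Nr4a site AAAGGTCA (1.34%) and an ETS core CCGGAA (12%). Of these, only CCGGAA was found in a window of the 7 genes, in Nr4a1, where it is not capitalised. These matches describe the letters and were not tested for function.

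At 30 min of LPS, 7 of the 10 genes had risen in both genotypes: Egr1, Egr2, Egr3, Nr4a1, Ier2, Ier3 and Nab2. Among all tested genes, 4.79% were called higher at this time in WT and 5.16% in D310N (6.09% and 6.64% in either direction). The 10 genes were chosen with earlier results of these data known, so this contrast is only a description. Egr1 read 8.21, 8.17 and 8.12 in the 3 WT libraries before LPS and 13.30, 13.37 and 13.31 at 30 min. In D310N it read 8.15, 8.06 and 9.20 before LPS and 13.27, 13.38 and 13.43 at 30 min. The groups before and after LPS lay far apart, and D310N replicate 3 stood about 1 log2 unit above the other unstimulated libraries. The rise of Egr1 was 5.16 ± 0.16 in WT (35.8-fold, adjusted p = 1.85e-22) and 4.89 ± 0.16 in D310N (29.6-fold, adjusted p = 7.83e-22). Since these are bulk RNA values, more responding cells and more RNA per cell cannot be told apart.

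Nr4a1 (chr15:101254269-101274795) rose from 6.57, 6.32 and 6.0 to 9.89, 10.07 and 9.69 in WT, and from 6.12, 6.29 and 6.29 to 9.64, 10.12 and 9.75 in D310N. The rise was 3.59 ± 0.17 in WT and 3.61 ± 0.17 in D310N. Ier2 (chr8:84661331-84662852) rose from 8.83, 8.76 and 8.63 to 12.08, 12.17 and 12.05 in WT, by 3.36 ± 0.15, and by 3.17 ± 0.15 in D310N. Ier3 (chr17:35821684-35822923) rose from 6.79, 6.60 and 6.48 to 9.65, 9.63 and 9.63 in WT, by 3.01 ± 0.15, and by 2.88 ± 0.15 in D310N. For each of these genes every library at 30 min was above every library at 0 min.

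Egr2 and Egr3 rose at 30 min from unstimulated levels that differed between the genotypes. Egr2 (chr10:67535475-67542188) rose by 3.11 ± 0.10 in WT (8.62-fold) and by 2.52 ± 0.10 in D310N (5.73-fold). Egr3 (chr14:70077203-70082614) rose by 2.91 ± 0.14 in WT (7.53-fold) and by 2.99 ± 0.14 in D310N (7.95-fold). Nab2 rose by only 0.34 ± 0.10 in WT (adjusted p = 0.0309) and 0.36 ± 0.10 in D310N (adjusted p = 0.0158). Each Nab2 call was lost on leaving out single libraries: 4 of the 6 in WT (adjusted p = 0.0943 to 0.137) and 3 of the 6 in D310N (0.0746 to 0.125).

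**Figure D1:**
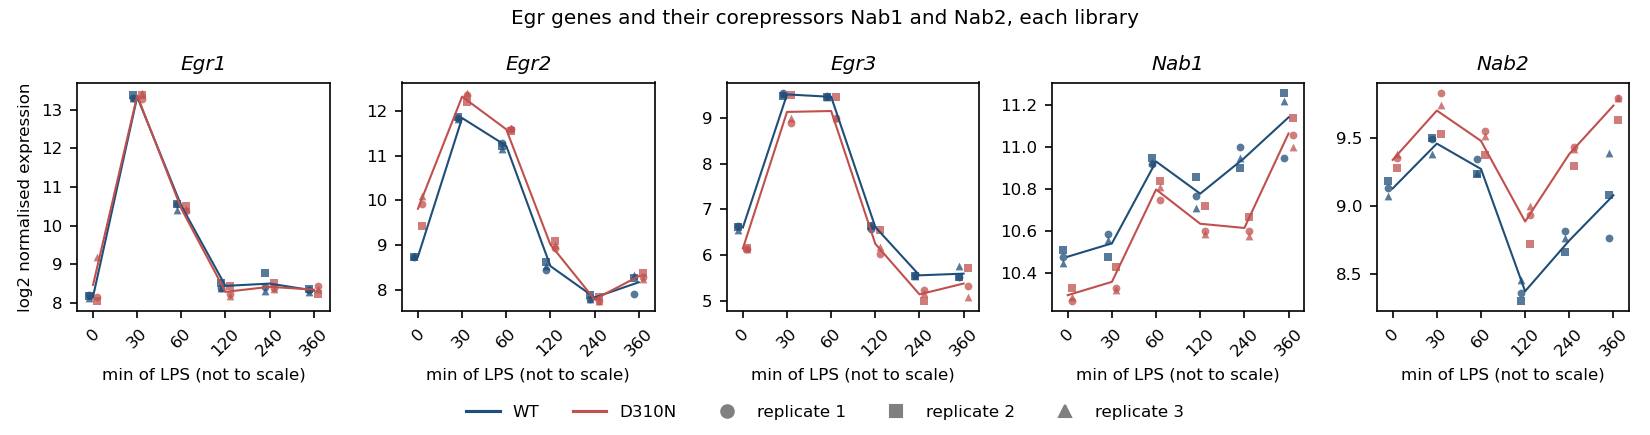
Log2 normalised expression of Egr1, Egr2, Egr3, Nab1 and Nab2 (vertical axis, each gene on its own scale) against minutes of LPS (horizontal axis, not to scale) in WT (blue) and D310N (red). Points are single libraries with a symbol per replicate number, and lines join group means of 3 libraries. Egr1 peaked at 30 min at 13.27 to 13.43 in all 6 libraries, and unstimulated Egr2 was 8.72 to 8.76 in WT against 9.42 to 10.09 in D310N.

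The 6 genes with sharp rises then fell at different paces. Whether a pace differed between the genotypes was not tested. From 30 to 60 min, 5 of the 10 genes fell in each genotype (Egr1, Egr2, Nr4a1, Ier2 and Ier3) and Nab1 and Nr4a3 rose. Of all tested genes, 33.6% were called in this step in WT (17.4% higher, 16.2% lower) and 31.8% in D310N (17.0% and 14.9%). Egr1 at 60 min was at 14.2% of its 30 min level in WT and 13.2% in D310N, Ier2 at 21.4% and 20.8%, Nr4a1 at 43.5% and 43.1%, Ier3 at 53.4% and 53.1%, and Egr2 at 64.9% and 60.0%. Egr3 had not passed the test in this step, with 96.3% left in WT and 101% in D310N. The 3 WT libraries of Egr3 read 9.55, 9.48 and 9.52 at the earlier time, against 9.48, 9.45 and 9.46 at the later, within 0.1 of each other.

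From 60 to 120 min Egr2, Egr3 and Nr4a1 made their steep fall. Egr3 fell by 2.85 ± 0.14 in WT and 2.91 ± 0.14 in D310N, to 13.9% and 13.3% of the 60 min level. Nr4a1 fell by 3.15 ± 0.17 and 3.17 ± 0.17, to 11.3% and 11.1%. Egr2 fell by 2.69 ± 0.10 and 2.58 ± 0.10, to 15.5% and 16.7%. Egr1 and Ier2 fell further, to 23.9% and 29.8% of the 60 min level in WT and to 22.6% and 38.2% in D310N. In WT 8 of the 10 genes fell in this step and in D310N 7, and 54.1% and 54.8% of all tested genes were called (28.1% and 27.0% lower, 26.0% and 27.8% higher), with Nr4a3 rising in both. The gene called in WT alone was Ier3, a survival gene, with a change of -0.38 ± 0.15 in WT (adjusted p = 0.0333) and -0.11 ± 0.15 in D310N (adjusted p = 0.548). That WT call was lost without any of 5 of its 6 libraries (adjusted p = 0.0566 to 0.0946), and whether this step differed between the genotypes was not tested.

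**Figure D2:**
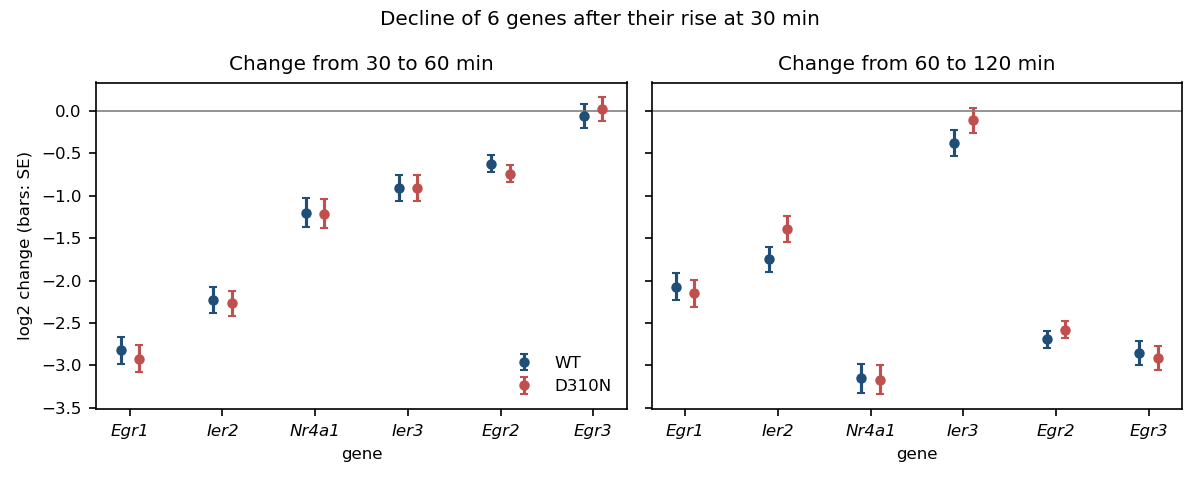
Log2 change from 30 to 60 min (left) and from 60 to 120 min (right) for 6 genes that rose at 30 min, in WT (blue) and D310N (red). Points are differences of means of 3 libraries and bars are the SE from the fit pooled over all 36 libraries. In the first step the change ran from -2.82 for Egr1 to -0.06 for Egr3 in WT, and in the second Egr3 and Nr4a1 fell by 2.85 and 3.15.

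By 240 min Egr2, Egr3 and Nr4a1 were below their unstimulated levels. At 240 min Egr2 was at 0.53 of its 0 min level in WT (-0.92 ± 0.10, adjusted p = 1.38e-09) and at 0.245 in D310N (-2.03 ± 0.10, adjusted p = 6.52e-18). Egr3 was at 0.484 in WT and 0.50 in D310N, and Nr4a1 at 0.407 and 0.319, all 4 of these called. At this time 80.0% of all tested genes were called in WT and 79.1% in D310N, and 9 and 8 of the 10 genes, which is close to that background. Egr1 was not called against its starting level at 120 min, with a difference of 0.28 ± 0.16 in WT and -0.18 ± 0.16 in D310N. At 240 min Egr1 was called in WT by a narrow margin (0.34 ± 0.16, adjusted p = 0.049), and this call was lost in 35 of the alternative analyses. In D310N the change of Egr1 at 240 min was -0.05 ± 0.16, and without replicate 3 at 0 min, the library at 9.20, it was 0.32 (adjusted p = 0.00239).

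Counted over the later times, the genes split by direction. At 60 min 8 of the 10 were higher than at 0 min in each genotype, among 37.2% of all tested genes called in WT (20.1% higher) and 38.5% in D310N (21.3% higher). At 120 min 3 were higher and 3 lower in WT, where 66.6% of all genes were called (32.4% higher, 34.2% lower), and 4 and 4 in D310N, with 64.0% called (31.9% higher, 32.1% lower). At 240 min 5 were higher and 4 lower in WT (39.6% and 40.4% of all genes), and 4 and 4 in D310N (39.0% and 40.2%). At 360 min 5 were higher and 2 lower in WT, with 80.4% of all genes called (39.3% higher, 41.0% lower), and 6 and 3 in D310N, with 80.0% called (39.0% higher, 41.0% lower). Only Nr4a3 and Ier3 were higher at every time from 60 min on in both genotypes, besides Nab1, whose calls at 120 and 240 min depended on the scaling.

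The 3 Nr4a receptors followed different courses. Nr4a3 (chr4:48045153-48086447) was not called at 30 min, where WT libraries read 4.98, 5.01 and 4.61 against 4.83, 4.61 and 4.78 before LPS. In WT the 60 min libraries then stood at 6.99, 6.85 and 7.0, the 120 min libraries at 9.02, 8.97 and 8.87, and the 240 min libraries at 9.56, 9.36 and 9.44. In D310N the same times gave 6.82, 6.87 and 6.84, then 8.66, 8.74 and 8.79, then 8.79, 8.88 and 8.92. Nr4a3 thus passed the test at 60, 120 and 240 min in both genotypes. Its rise over 0 min at 240 min was 4.72 ± 0.17 in WT (26.3-fold) and 4.33 ± 0.17 in D310N (20.1-fold). Nr4a3 was thus rising while Nr4a1 fell. Nr4a2 (chr2:57106830-57124003) was weakly expressed, at 3.73 to 4.39 before LPS, and came last: it was first called in WT at 240 min, where it read 6.04, 5.98 and 5.99, and in D310N at 120 min (0.60 ± 0.16, adjusted p = 0.00123). Its means at 120 min were 4.48 in WT and 4.52 in D310N, against 4.18 and 3.92 at 0 min. The test of a different LPS change in the genotypes at 120 min, given further on, did not call Nr4a2. At 240 min its rise was 1.82 ± 0.16 in each genotype (3.54-fold), and at 360 min 1.82 ± 0.16 in WT and 1.90 ± 0.16 in D310N. As Nr4a2 is near the low end of the table, these log2 differences may be too small.

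**Figure D3:**
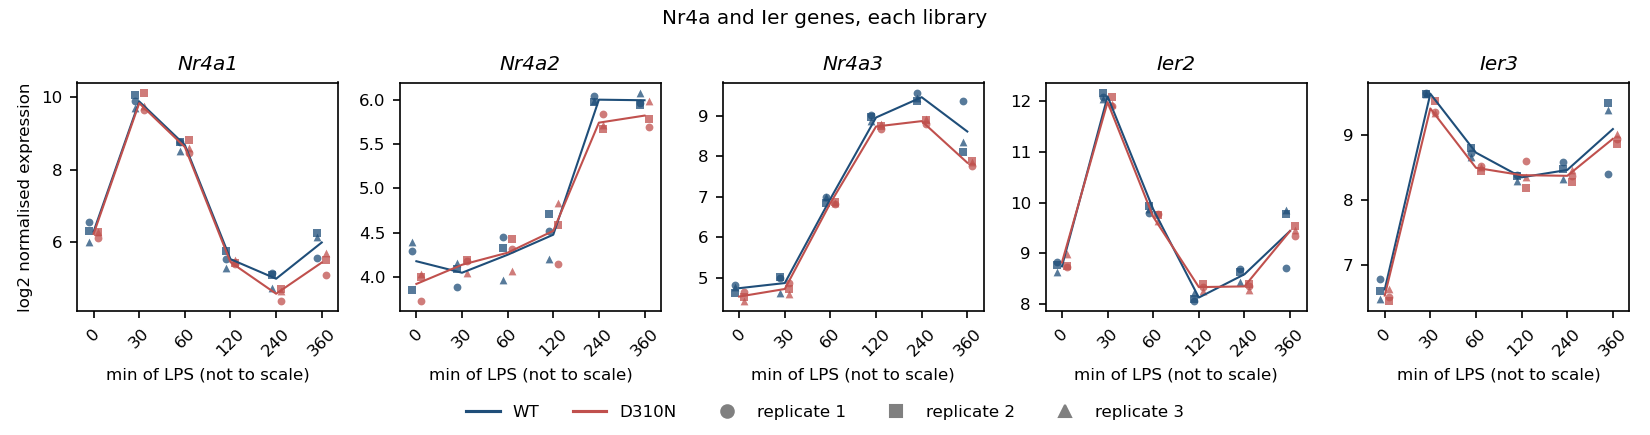
Log2 normalised expression of Nr4a1, Nr4a2, Nr4a3, Ier2 and Ier3 (vertical axis, each gene on its own scale) against minutes of LPS (horizontal axis, not to scale) in WT (blue) and D310N (red). Points are single libraries with a symbol per replicate number, and lines join group means of 3 libraries. Nr4a1 was highest at 30 min and Nr4a3 at 240 min, and at 360 min WT replicate 1 lay apart from the other two WT libraries for Nr4a3 (9.37), Ier2 (8.70) and Ier3 (8.40).

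The corepressors moved little by comparison and in different ways. Nab1 (chr1:52457294-52500679) read 10.48, 10.51 and 10.45 in unstimulated WT cells and 10.92, 10.95 and 10.93 at 60 min, with no overlap, a rise of 0.46 ± 0.06 (1.37-fold). In D310N it rose by 0.50 ± 0.06 (1.42-fold). At 360 min its rise was 0.67 ± 0.06 in WT, or 0.76 without WT replicate 1, and 0.77 ± 0.06 in D310N. At 240 min the rise of 0.47 ± 0.06 in WT and 0.32 ± 0.06 in D310N depended on the scaling, since after quantile normalisation it was 0.02 and -0.05. The rise at 120 min (0.30 and 0.34) was likewise 0.05 and 0.11 after that normalisation, neither called. Nab2 (chr10:127660918-127668568) fell at 120 min by 0.76 ± 0.10 in WT, to 8.36, 8.30 and 8.45 from 9.13, 9.18 and 9.07, and by 0.45 ± 0.10 in D310N, to 8.93, 8.72 and 9.0 from 9.35, 9.28 and 9.38. Both groups at 120 min lay wholly below their unstimulated libraries. Nab2 exons overlap exons of Stat6, Nemp1 and Gm16229 on the opposite strand, and as the sources used here do not say that counting was strand-specific, reads of these genes cannot be told apart from those of Nab2. None of the other 9 genes overlaps an exon of another gene in GENCODE M21.

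Between 240 and 360 min 6 genes rose again in both genotypes: Egr2, Nab1, Nab2, Nr4a1, Ier2 and Ier3. Nr4a3 fell in both. Higher calls made up 12.3% of all tested genes in WT and 18.6% in D310N (26.3% and 38.9% in either direction, with 14% and 20.3% lower). Ier2 in D310N went from 8.35, 8.40 and 8.28 to 9.34, 9.53 and 9.45, a rise of 1.1 ± 0.15. In WT it went from 8.69, 8.63 and 8.43 to 8.70, 9.77 and 9.85, a rise of 0.86 ± 0.15, and of 1.22 without replicate 1. The library at 8.70 lay at the 240 min level and the other two more than 1 log2 unit above it. Ier3 rose by 0.57 ± 0.15 in D310N and by 0.63 ± 0.15 in WT, or 0.97 without WT replicate 1. Nr4a1 rose by 0.86 ± 0.17 in D310N and by 0.99 ± 0.17 in WT, or 1.2 without that library. Nr4a3 fell by 1.03 ± 0.17 in D310N and by 0.85 ± 0.17 in WT, or 1.23 without it. All 7 WT calls were lost when the fit used only the libraries of these groups (adjusted p = 0.309 to 0.31), and 3 genes were called without WT replicate 2, and likewise 3 without WT replicate 3.

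Before LPS, the genotypes differed in 3 of the 10 genes: Egr2 was higher in D310N, and Egr3 and Nab1 were lower. Of all tested genes 10.7% were called at this time, 3.64% higher and 7.09% lower in D310N. Egr2 read 8.72, 8.74 and 8.76 in WT and 9.93, 9.42 and 10.09 in D310N. Every D310N library was above every WT library, and the D310N libraries were spread more widely. The difference was 1.07 ± 0.10 (2.1-fold, adjusted p = 1.1e-08), and it was called in all 47 alternative analyses that give it, at 0.94 to 1.27. Egr3 read 6.64, 6.62 and 6.55 in WT and 6.13, 6.16 and 6.14 in D310N, a difference of -0.46 ± 0.14 (0.727 of WT, adjusted p = 0.0262). Nab1 read 10.48, 10.51 and 10.45 in WT and 10.27, 10.33 and 10.29 in D310N, a difference of -0.18 ± 0.06 (0.88 of WT, adjusted p = 0.0314). Neither pair of groups overlapped, but the Egr3 and the Nab1 calls were each lost without any of 5 of the 6 libraries of 0 min (adjusted p = 0.0516 to 0.0898 and 0.0511 to 0.131). Egr1 was 0.30 ± 0.16 higher in D310N, which was not called (adjusted p = 0.255), and the difference was -0.06 without the library at 9.20.

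Egr2 was also higher in D310N at 30, 60 and 120 min, and was not called at 240 or 360 min. At 30 min it read 11.85, 11.87 and 11.82 in WT and 12.36, 12.21 and 12.41 in D310N, a difference of 0.48 ± 0.10 (1.4-fold, adjusted p = 0.00115). At 60 min it read 11.29, 11.23 and 11.15 in WT and 11.61, 11.55 and 11.62 in D310N (0.37 ± 0.10, adjusted p = 0.0123). The groups did not overlap at either time, though the 60 min call was lost without WT replicate 3 (0.33, adjusted p = 0.0649). At 120 min it read 8.44, 8.61 and 8.53 in WT and 8.94, 9.10 and 8.99 in D310N (0.48 ± 0.10, adjusted p = 0.000953). At 240 min it read 7.80, 7.89 and 7.78 in WT and 7.75, 7.84 and 7.75 in D310N, and at 360 min 7.90, 8.26 and 8.33 in WT and 8.29, 8.38 and 8.23 in D310N. These late groups overlapped, with differences of -0.04 ± 0.10 and 0.14 ± 0.10, the second being 0.01 without WT replicate 1. At 30 min, 2 of the 10 genes were called between the genotypes against 12.2% of all tested genes (4.43% higher and 7.78% lower in D310N), at 60 min Egr2 alone against 12.9% (4.89% higher), and at 120 min 2 against 17.7% (7.94% higher). The second gene at 30 min was Nab1 (-0.18 ± 0.06, adjusted p = 0.0311), whose call was lost without any of 4 of the 6 libraries (adjusted p = 0.0933 to 0.137).

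Nab2 was called higher in D310N at 120, 240 and 360 min. At 120 min the D310N values given above were all higher than those of WT, by 0.52 ± 0.10 (1.43-fold, adjusted p = 0.000273). At 240 min Nab2 read 8.81, 8.66 and 8.76 in WT and 9.43, 9.29 and 9.42 in D310N, a difference of 0.64 ± 0.10 (1.55-fold, adjusted p = 3.19e-05). At 360 min it read 8.76, 9.08 and 9.39 in WT and 9.79, 9.63 and 9.79 in D310N, a difference of 0.66 ± 0.10 (1.58-fold, adjusted p = 2.8e-05). The groups did not overlap at any of the 6 times, and at 360 min the difference was 0.50 without WT replicate 1 (adjusted p = 0.000158). Before 120 min the differences were 0.21 to 0.24 and not called, and the tests of a different LPS change in the genotypes, given further on, did not call Nab2 at any single time. The overlap of Nab2 with genes on the other strand, given above, applies to these values.

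At 240 min 4 of the 10 genes were called between the genotypes, 1 higher and 3 lower in D310N, against 17.0% of all tested genes (6.98% higher, 10.0% lower). Besides Nab2 these were Nr4a3, Nab1 and Egr3. Nr4a3 at the values given above was lower in every D310N library, by -0.59 ± 0.17 (0.664 of WT, adjusted p = 0.013), a call lost without WT replicate 1 (-0.54, adjusted p = 0.058) or D310N replicate 1 (-0.56, adjusted p = 0.0564). Nab1 read 11, 10.90 and 10.95 in WT and 10.60, 10.67 and 10.58 in D310N, with no overlap (-0.33 ± 0.06, adjusted p = 0.000115). Egr3 read 5.57, 5.55 and 5.55 in WT and 5.24, 5.0 and 5.18 in D310N, also with no overlap (-0.42 ± 0.14, adjusted p = 0.0347), but its call was lost without any single library of the 6 (adjusted p = 0.0531 to 0.129).

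At 360 min 3 of the 10 genes were called, against 16.3% of all tested genes (6.8% higher, 9.52% lower in D310N), and this count depended on WT replicate 1. Besides Nab2, Nr4a3 read 9.37, 8.10 and 8.35 in WT and 7.76, 7.89 and 7.86 in D310N (-0.77 ± 0.17, adjusted p = 0.00168), or -0.39 without that library (adjusted p = 0.00708). Nr4a1 read 5.58, 6.27 and 6.14 in WT and 5.11, 5.51 and 5.71 in D310N (-0.55 ± 0.17, adjusted p = 0.0261), or -0.76 without it (adjusted p = 0.00211). The Nr4a3 groups did not overlap and the Nr4a1 groups did. The Nr4a1 call was lost without D310N replicate 1 (-0.38, adjusted p = 0.186), WT replicate 2 (-0.41, adjusted p = 0.111) or WT replicate 3 (-0.48, adjusted p = 0.0783). Without WT replicate 1 there were 6 calls, as Nab1 (-0.18, adjusted p = 0.00994), Ier2 (-0.36, adjusted p = 0.00124) and Ier3 (-0.49, adjusted p = 0.000318) were added. Through the shared estimate of the spread, leaving out that library also gave 3 calls at 30 min, 3 at 60 min, 5 at 120 min and 6 at 240 min. The shares of all tested genes called in that fit are not given here, so these counts have no background beside them. With all libraries Ier2 at 360 min differed by 0.01 ± 0.15 and Ier3 by -0.15 ± 0.15. Ier3 libraries read 8.40, 9.50 and 9.38 in WT and 8.94, 8.87 and 9.02 in D310N, so that WT lay on both sides of D310N. When the fit used only the 6 libraries of 360 min, 0 genes of the 10 were called, against 3 in the fit over all 36 libraries.

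**Figure D4:**
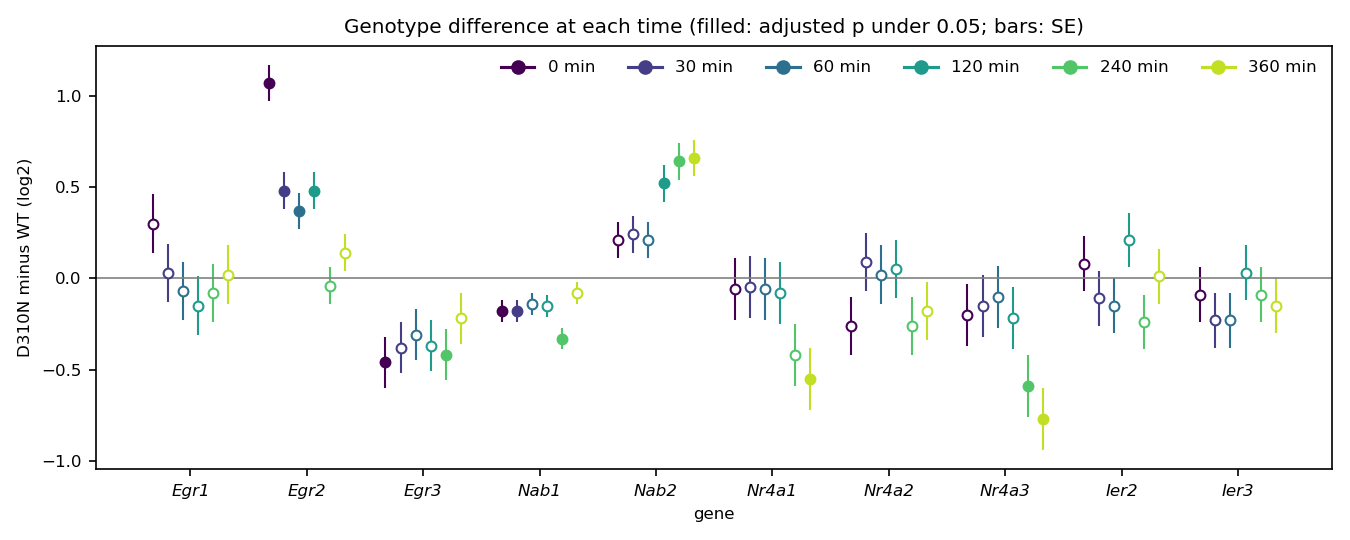
Log2 difference of D310N from WT (vertical axis) for each of the 10 genes at each of the 6 times, as means of 3 against 3 libraries. Bars are the SE from the fit pooled over all 36 libraries, not the spread of the groups shown. At 0 and 360 min the difference was 1.07 and 0.14 for Egr2, 0.21 and 0.66 for Nab2, and -0.20 and -0.77 for Nr4a3. Without WT replicate 1 the 360 min values were 0.01, 0.50 and -0.39, and only for Egr2 was the LPS change itself called as different between the genotypes at single times with all libraries.

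On average over the 6 times, 6 of the 10 genes were called, against 48.1% of all tested genes (22.7% higher, 25.4% lower in D310N). Egr2 (0.42 ± 0.04) and Nab2 (0.41 ± 0.04) were higher in D310N. Egr3 (-0.36 ± 0.06), Nr4a3 (-0.34 ± 0.07), Nr4a1 (-0.20 ± 0.07) and Nab1 (-0.18 ± 0.02) were lower. Egr1, with 0.01 ± 0.06, Ier2, with -0.03 ± 0.06, Nr4a2, with -0.09 ± 0.06, and Ier3, with -0.13 ± 0.06, were not called. The Nr4a1 call was lost after quantile normalisation (-0.16, adjusted p = 0.0543), and when each replicate number was first averaged over the times within a genotype (-0.20, adjusted p = 0.122). That averaging, chosen after seeing the data, called Ier3 (-0.13, adjusted p = 0.0493). Without WT replicate 1 at 360 min Ier2 (-0.10, adjusted p = 0.00542) and Ier3 (-0.18, adjusted p = 3.38e-05) were also called. Single replicate numbers recurred at the ends of the range in both genotypes. WT replicate 3 was the lowest of the 3 at 5 of the 6 times for Egr1, and likewise for Nr4a1. D310N replicate 1 was the lowest of the 3 for Nr4a1 at 6 of the 6 times. D310N replicate 2 was the highest of the 3 for Egr3 at 5 of the 6 times and for Nab1 at 6 of 6, and the lowest for Nab2 at 6 of 6. If these numbers were shared between times, the SEs of the averages would be too small.

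Whether LPS changed the genes by different amounts in the genotypes was tested as the difference of the 2 changes. All 5 of these tests share the 0 min libraries. For Egr2 the change was smaller or more negative in D310N by -0.59 ± 0.14 at 30 min (not called, unadjusted p = 0.000297), -0.70 ± 0.14 at 60 min (adjusted p = 0.0471), -0.59 ± 0.14 at 120 min (adjusted p = 0.0382), -1.11 ± 0.14 at 240 min (adjusted p = 2.82e-05) and -0.93 ± 0.14 at 360 min (adjusted p = 0.000332). Egr2 was the only one of the 10 genes called at these 4 times, where 0.0686%, 0.935%, 1.95% and 2.01% of all tested genes were. At 30 min limma called 0 of the 11656 genes, and 108 had an unadjusted p under 0.05, of the 10 genes Egr2 alone. At 60 min 339 genes had such a p. Both are fewer than a threshold of 0.05 would give if no gene differed. The reason for this shortfall was not tested, and missing calls at these times do not show equal changes. The Egr2 call at 60 min was lost in 35 alternatives and the call at 120 min in 11, while that at 240 min held in all 48. At 360 min it was lost only in the fit limited to the groups compared (adjusted p = 0.126), and without WT replicate 1 the difference was -1.07. A joint test over the 5 times called Egr2 (adjusted p = 0.000106) and Nab2 (adjusted p = 0.0445), against 4.84% of all tested genes. The Nab2 call was lost in 31 alternatives. Without WT replicate 1 at 360 min the test at 360 min also called Ier2 (-0.44, adjusted p = 0.00943) and Ier3 (-0.40, adjusted p = 0.0499), that at 240 min Nab2 (0.42, adjusted p = 0.0179), and the joint test Ier2 (adjusted p = 0.00134) and Ier3 (adjusted p = 0.0423).

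Genes of the immediate early response and of the signalling around it were also read from 6 lists of 83 genes, of which 78 were tested. At 30 min of LPS in WT, 8 of 9 Fos, Jun and Atf factors rose and none fell, with a median difference of 1.48 against 0 over all genes. Fos rose by 2.64 ± 0.07, Fosb by 2.56 ± 0.20 and Junb by 2.52 ± 0.04. Of 23 other immediate early genes 19 rose (median 1.13), among them Zfp36, which destabilises cytokine mRNAs, by 3.11 ± 0.11, and the antiproliferative gene Btg2 by 2.84 ± 0.07. Of 11 feedback regulators of ERK signalling 7 rose (median 1.12), led by the phosphatases Dusp2 (3.30 ± 0.09), Dusp1 (3.01 ± 0.19) and Dusp5 (2.71 ± 0.10). Of 20 kinases and factors upstream, Map3k8 (Tpl2) alone was called (1.25 ± 0.05, median 0.01). Of 12 cofactors of Egr, Nab and Nr4a proteins 0 were called by limma, and 0 had an unadjusted p under 0.05. The relatives Ier5 (0.95 ± 0.06) and Ier5l (-0.75 ± 0.20) moved in opposite directions.

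At 240 min in WT the lists held genes of both directions, as did all tested genes, of which 39.6% were called higher and 40.4% lower. Among ERK feedback genes 5 were higher and 6 lower (median -0.44), with Dusp2 at 3.43 ± 0.09 and Dusp6 at -2.05 ± 0.12. Among the cofactors 6 were higher and 5 lower, including Rxra, a partner of Nr4a1 and Nr4a2, at -2.02 ± 0.08. Before LPS, 4 of the 9 Fos, Jun and Atf factors were higher in D310N and none lower (median 0.17 against -0.01 over all genes, of which 3.64% were called higher and 7.09% lower). On average over the times, where 22.7% of all genes were called higher and 25.4% lower, 4 of these 9 were higher and 3 lower in D310N, with Fosl1 at 0.37 ± 0.07 and Jun at -0.21 ± 0.03, and the other immediate early genes split 8 higher and 7 lower of 23. Of the 20 upstream genes 10 were higher and 4 lower, including Mapk14 (p38 alpha), at 0.20 ± 0.03. In the other lists before LPS, 4 of 23 other immediate early genes, 1 of 11 feedback genes and 2 of 20 upstream genes were higher in D310N. None was lower, and no relative or cofactor was called. Whether the 4 Fos, Jun and Atf calls before LPS hold without D310N replicate 3 of 0 min is not given here. These lists were chosen with results of these data known.

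For each gene the 3 tested genes with the most similar profile were found by Pearson's r over the 12 group means, which share libraries and the LPS time course, so r is only a description. Fosb, an AP-1 subunit, was the nearest to Nr4a1 (r = 0.984) and to Egr2 (r = 0.967) and second to Egr3 (r = 0.97, after Gdf15 at 0.972). Egr1 was nearest to Phlda1 (r = 0.937) and Ier2 to Btg2 (r = 0.952). Ier3 was nearest to Zfp36 (r = 0.951), and Nfkbia, the NF-kappaB inhibitor, ranked among its 3 (r = 0.923). Nr4a3 was nearest to Efna2 (r = 0.997), with the ubiquitin ligase Peli1 next (r = 0.995), and Nr4a2 to Ppp6r1 (r = 0.995). Nab2 was nearest to Sos2 (r = 0.967) and Nab1 to Rheb (r = 0.944). Among the 10 genes, Egr2 and Nr4a1 were most alike (r = 0.968), and r was lowest for Egr2 and Nr4a2 (-0.735). Nr4a1 and Nr4a3 also ran opposite (r = -0.672).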

How the data were processed

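RNA was read by single-end sequencing of 75 bases in 36 libraries. Per the submitters' processing notes, reads were processed with STAR 2.5.2a, RSEM 1.2.31 and DESeq2 1.10.1 on mm10. The deposited table holds log2 normalised values, from -4.14 to 19.3, and the transformation is not given in the sources used here. One that pulls low values together would make log2 differences of weak genes too small. Without counts, no counting error or detection limit can be given. Of 16439 rows, 23 with date-like names were dropped, and genes at 10 or more on the linear scale (3.32 in log2) in at least 3 libraries were tested.

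The test was limma 3.58.1 (R 4.3.3), fitted to the deposited log2 values with 12 group means, an intensity trend and 24 residual degrees of freedom. There were 31 comparisons per gene. Two-sided p-values were adjusted with Benjamini-Hochberg over all genes within each comparison, and not over comparisons. There were 49 alternatives: 10 planned settings, each of 36 libraries left out, and 3 added after seeing the data. Values of all 10 genes are reported, with up to 3 called genes per list by size of difference, and Tnip2. The 10 genes and the lists were chosen with earlier results of these data known.

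Same-numbered replicates were checked for pairing by the correlation of their deviations from group means. All 3 pairs exceeded 0.1 only for D310N at 120 against 0 min (0.131 to 0.373), and no label pairs them. Over the LPS times against 0 min, every D310N correlation was positive (0.037 to 0.419), while those of WT ran from -0.249 to 0.126. If D310N numbers were shared between times, the main fit ignored that pairing in the LPS comparisons. Gene positions are from GENCODE M21 (GRCm38), and sequences from RefSeq (GRCm38.p6). Figures were drawn with matplotlib 3.10.9.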

Additional observations from a re-analysis of the deposited data

Results flagged for a closer look

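The change of Egr2 under LPS differed between the genotypes in tests of that difference itself. D310N minus WT, the difference in the change from 0 min was -0.70 at 60 min, -0.59 at 120 min, -1.11 at 240 min and -0.93 at 360 min. The joint limma test over the 5 times gave an adjusted p of 0.000106 for Egr2 and 0.0445 for Nab2, and called 4.84% of all tested genes. The Egr2 difference at 60 min was called in only 13 of 48 alternatives. Most alternatives also lost the joint Nab2 call, as given above. All these tests of different changes share the unstimulated libraries, in which Egr2 was 1.07 higher in D310N.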

How the results depend on the processing

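Counts are of the 10 genes called, and the cause of a change was not tested unless named. Shares of all tested genes called under these settings are not given here. A moved count therefore does not tell a change in these genes from a change in all genes. When the fit used only the libraries of the groups compared, which leaves fewer residual degrees of freedom, D310N against WT gave 5 at 30 min, 6 at 60 min and 0 at 360 min, the WT step from 240 to 360 min gave 0, and the tests of different LPS changes gave 0 at 60, 120 and 360 min and 2 at 240 min. With the replicate block, D310N against WT gave 4 at 120 min and the test of different changes 0 at 60 min, and in no other comparison did the block move the count by over 1.5 times. A block within each genotype gave 2 for different changes at 360 min. Different changes at 60 min also gave 0 without an intensity trend and with 8 added on the linear scale, and those at 120 min 0 without a trend. The joint test gave 1 without a trend, without a filter, after quantile normalisation, with equal medians and without D310N replicate 2. D310N against WT gave 2 at 60 min after quantile normalisation and 1 at 30 min with equal medians. Library weights gave 6, 5, 5 and 7 for D310N against WT at 0, 30, 60 and 360 min, 1, 5 and 4 for different changes at 30, 240 and 360 min, and 4 in the joint test. D310N replicate 2 left out at all times gave 4, 2 and 4 for D310N against WT at 30, 60 and 120 min and 1 for different changes at 30 min.

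With 1 library left out, D310N against WT gave 1 to 4 at 0 min, 1 to 4 at 30 min, 0 to 3 at 60 min, 2 to 5 at 120 min, 2 to 6 at 240 min, 2 to 6 at 360 min and 6 to 8 on average. The WT step from 240 to 360 min gave 3 to 7. Different changes gave 0 to 1 at 30, 60 and 120 min, 1 to 2 at 240 min and 1 to 3 at 360 min, and the joint test 1 to 4. The LPS changes and other steps stayed within 1.5 times of their counts.

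Called values that changed sign were few. Without D310N replicate 3 at 0 min, the Egr1 change in D310N was 0.32 at 240 min and 0.24 at 360 min (lowest with another library left out, -0.26 and -0.33). Ier2 at 360 min differed by -0.36 without WT replicate 1 (0.21 at most without another library) and by -0.36 with library weights. Library weights gave Nab2 a WT change of 0.20 at 360 min. Quantile normalisation gave Nab1 -0.05 at 240 min in D310N and -0.03 for the WT step from 120 to 240 min, and Ier5 -0.04 at 240 min in WT.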
